A study of Caenorhabditis elegans with 2 samples.

Results

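The Sm, LSm and splicing protein genes of Caenorhabditis elegans were examined for occupancy by SNPC-1.2, which is part of SNAPc, the protein complex that activates transcription of small nuclear RNA (snRNA) genes. The 35 genes were taken by name from a list of Sm core proteins, LSm proteins, snRNP proteins, 3′ splice site factors, trans-splicing and snRNP assembly factors and SR proteins. All 35 were found among 19973 protein-coding genes on nuclear chromosomes. A gene was called occupied when the summit of a peak in the thresholded list made from both replicates lay within 250 bp of its 5′ end, and 100 and 500 bp were set beside this. Chromatin immunoprecipitation sequencing (ChIP-seq) had used an anti-GFP antibody and whole L4 larvae at 48 hours, in 2 biological replicates of 1 group. The larvae were of strain RW12251, in which CRISPR insertion had placed a TY1::EGFP::3xFLAG tag on snpc-1.2 on chromosome III, and they had been synchronized by L1 starvation after bleaching. Sonicated fragments were 200 to 800 bp long, and sex was not collected. There was no second genotype, stage or treatment, and the control library and the reads were not analysed here, so read depth is unknown and no contrast between conditions was possible.

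Removal of introns depends on small nuclear ribonucleoproteins (snRNPs), each an snRNA wrapped by a ring of Sm proteins or, for U6, of LSm proteins. SNAPc binds the promoters of snRNA genes and recruits the polymerase that transcribes them. The SMN protein loads the Sm ring onto snRNA, the U2AF and SF1 proteins recognise the 3′ splice site and branch point, and SR proteins bind exons and help to define splice sites. In nematodes many messages also receive a spliced leader by trans-splicing, and many genes lie in operons. The genes described here encode the protein partners of the snRNAs and are themselves transcribed by RNA polymerase II. In a bulk sample of whole larvae a peak averages over all tissues, and the tissue that gave it cannot be told.

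The sequences at the summits that the results turn on are shown first. Each runs 5′ to 3′ on the strand of the named gene, covers up to 75 bases on either side of the whole-series summit, and leaves out bases inside annotated protein-coding genes. Coordinates are on ce11 (WBcel235), and the sequences come from the RefSeq genome of that build. Capitals mark matches, on either strand, to any of 4 short words. The word CTGTTTCA is the core of the upstream motif of piRNA genes, and TATAAA is a TATA box. Another motif, GTTCGAA, is the core of the B box inside tRNA genes. The 3′ splice site consensus of this species, TTTCAG, begins with letters that end the first word, so that these matches can overlap. The uaf-2 summit lay just inside the gene, so that only the part upstream of the gene is printed. The stretches were chrV:11980015-11980165 on the minus strand for snr-4, chrIV:17118768-17118840 on the minus strand for uaf-2, chrIII:8164059-8164209 on the plus strand for prp-8, chrII:11453114-11453264 on the plus strand for rsp-1, which shares its peak with rsp-2, chrIV:7791365-7791515 on the minus strand for rsp-6, chrIV:17087555-17087705 on the plus strand for snr-1, chrIV:10933204-10933324 on the plus strand for lsm-7, and chrII:6489925-6490075 on the minus strand for snr-3, which shares its call with rsp-5.
snr-4: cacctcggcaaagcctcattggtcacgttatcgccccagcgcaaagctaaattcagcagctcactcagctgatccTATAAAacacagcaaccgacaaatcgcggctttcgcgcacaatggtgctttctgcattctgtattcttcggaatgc
uaf-2: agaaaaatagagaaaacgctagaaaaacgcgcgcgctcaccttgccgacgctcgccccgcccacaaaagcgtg
prp-8: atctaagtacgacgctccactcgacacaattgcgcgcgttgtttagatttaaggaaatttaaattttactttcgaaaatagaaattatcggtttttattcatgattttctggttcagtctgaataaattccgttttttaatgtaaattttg
rsp-1: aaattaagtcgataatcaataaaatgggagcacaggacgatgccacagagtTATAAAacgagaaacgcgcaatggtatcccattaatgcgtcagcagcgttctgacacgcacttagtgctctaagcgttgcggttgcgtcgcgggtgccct
rsp-6: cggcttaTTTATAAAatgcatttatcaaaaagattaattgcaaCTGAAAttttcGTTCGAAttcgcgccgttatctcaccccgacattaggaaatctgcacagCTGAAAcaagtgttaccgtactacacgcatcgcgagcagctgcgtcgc
snr-1: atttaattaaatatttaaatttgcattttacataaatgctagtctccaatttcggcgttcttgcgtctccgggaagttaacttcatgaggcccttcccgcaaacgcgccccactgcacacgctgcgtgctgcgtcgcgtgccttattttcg
lsm-7: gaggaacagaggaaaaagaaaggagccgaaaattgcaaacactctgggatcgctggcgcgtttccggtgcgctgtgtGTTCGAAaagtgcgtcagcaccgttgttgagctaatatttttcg
snr-3: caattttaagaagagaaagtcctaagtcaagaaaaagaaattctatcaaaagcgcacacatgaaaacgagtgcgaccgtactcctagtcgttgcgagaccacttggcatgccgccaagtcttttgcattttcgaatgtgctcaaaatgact

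Peaks stood near the 5′ ends of 6 of the 35 genes: prp-8, uaf-2, smn-1, rsp-1, rsp-2 and rsp-6. This was 17.1% of the genes (exact 95% Clopper-Pearson interval 6.56 to 33.6%), beside 496 of 19973 protein-coding genes, or 2.48% (2.27 to 2.71%). The 6 genes were marked by 5 peaks, because rsp-1 and rsp-2 share one between them. None of the 7 Sm genes and none of the 8 LSm genes was among them, although snr-1, snr-4 and lsm-7 had a peak between 250 and 500 bp away. The upper limits for these 2 groups were 41% and 36.9%, far above the 2.48% of all protein-coding genes, so their counts alone tell little. Within 500 bp the count was 9 of 35, or 25.7% (12.5 to 43.3%), beside 4.26% of all protein-coding genes. Within 100 bp it fell to uaf-2 alone, 2.86% (0.0723 to 14.9%), beside 0.861%. The intervals cover the counting of genes only. With 1 group and a list of genes no test was made, and the shares stand beside the background as a description. The 35 genes were chosen with earlier results of these data known.

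**Figure D1:**
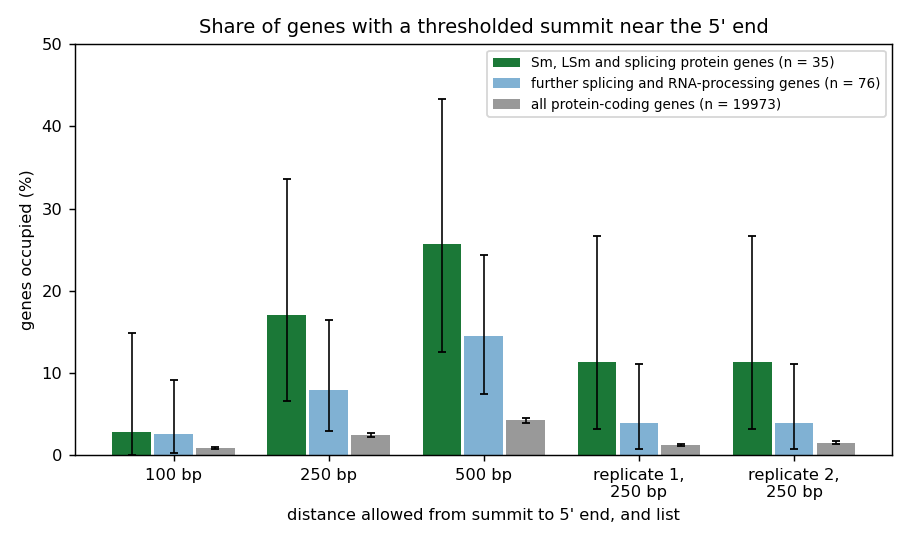
Share of genes (%) with a thresholded summit near the 5′ end, for the 35 genes, 76 further splicing and RNA-processing genes and all 19973 protein-coding genes, by distance allowed and list; bars are shares and lines are exact 95% intervals. The listed genes reach 17.1% at 250 bp and 11.4% in each replicate's own list, beside 2.48%, 1.22% and 1.54% of all protein-coding genes.

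Each replicate's own thresholded list, on its own, held a summit within 250 bp of 4 of the 35 genes (11.4%, interval 3.2 to 26.7%), but the genes differed. Replicate 1's list of 1411 nuclear peaks marked smn-1, uaf-2, rsp-1 and snr-1, and 1.22% of all protein-coding genes. Replicate 2's list of 1737 peaks marked smn-1, uaf-2, lsm-7 and rsp-5, and 1.54% of all protein-coding genes. Only smn-1 and uaf-2 were in both, which is 5.71% of the list (0.7 to 19.2%) beside 0.846% of all protein-coding genes. The call at snr-1 in replicate 1 rested on a side call with a signal value of 14.6, at rank 1373 of 1411, next to a peak of 100 that lay 410 bp upstream of the gene. The signal value is the authors' own figure for a peak, with no unit stated, and is read here only within a list. Ranked calls, most of them below the threshold, are common near genes in general. Replicate 1 had one within 250 bp of 19 of the 35 genes (54.3%), beside 28.4% of all protein-coding genes, and replicate 2 of 18 (51.4%), beside 30.5%. Both replicates had one at 12 of the 35 (34.3%, interval 19.1 to 52.2%), beside 17.5% of all protein-coding genes. Neither had one at 10 of the 35, a count not made for all protein-coding genes, so nothing is read from it.

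**Figure D2:**
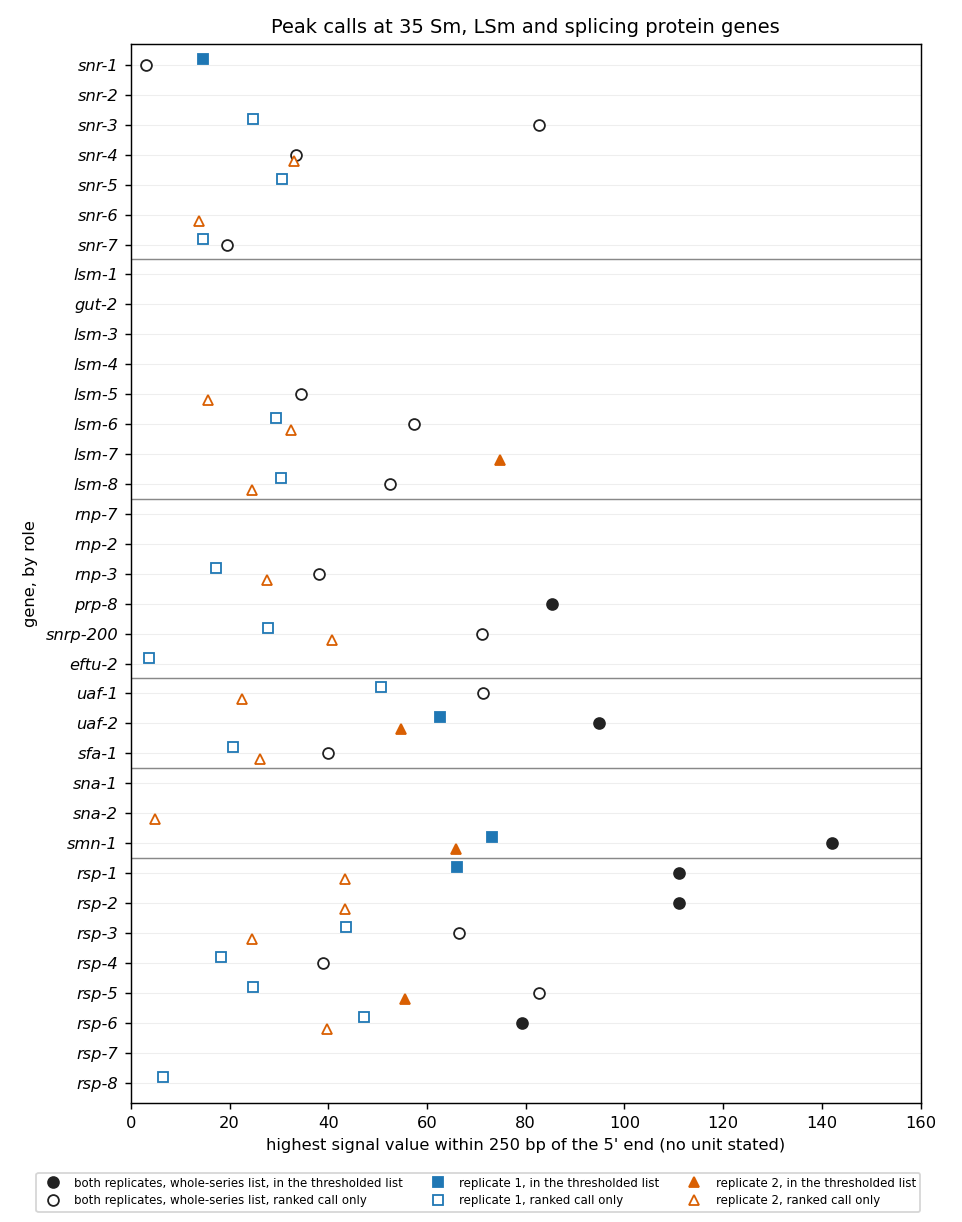
Highest signal value (no unit stated) of a call within 250 bp of the 5′ end of each of the 35 genes, grouped by role and divided by grey lines; circles are the whole-series list, squares replicate 1 and triangles replicate 2, filled where the call is in that list's thresholded set. The filled circles lie between 79.2 and 142, and only uaf-2 and smn-1 have all 3 symbols filled; values of different lists are on their own scales.

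The Sm genes encode the ring that binds every spliceosomal snRNA except U6. At snr-4, which encodes SmD2, the whole-series signal value was 218, and replicates 1 and 2 gave 99.1 and 118 in their own lists. The summit lay 367 bp upstream of snr-4 in the whole-series list, and 404 and 367 bp upstream in the replicates, so both replicates held it and all 3 lists placed it outside 250 bp. The nearest 5′ end was that of an snRNA gene, WBGene00014291 (C52E4.8 in RefSeq), a gene of 144 bp at chromosome V 11980118 to 11980261 on the plus strand, transcribed away from snr-4. The whole-series summit was 28 bp upstream of that snRNA gene, and inside C52E4.14, an annotated non-coding RNA. This was the only one of the 35 genes with an snRNA, tRNA or snoRNA gene within 500 bp. A piRNA gene, 21ur-10927, also lay within 500 bp of the 5′ end of snr-4. Whether the peak belongs to the snRNA gene, to snr-4 or to both cannot be told apart.

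At snr-1, which encodes SmD3, the whole-series signal value was 201, at rank 500 of 2829, with 100 in replicate 1 and 101 in replicate 2. All 3 lists held the peak past their thresholds, at 419, 410 and 424 bp upstream of snr-1. The 5′ end of snx-13, a sorting nexin gene that runs the other way, was nearer at 192 bp. A call at snr-3 (SmD1) lay between it and rsp-5 and was below the whole-series threshold. Its whole-series signal value was 82.7, 239 bp upstream of snr-3, with an irreproducible discovery rate (IDR) of 0.014. The IDR is the expected share of calls this good or better that would not repeat between the sets of calls compared, and the highest IDR in the thresholded list was 0.00999. Replicate 2's own list held the call at 55.6, whereas replicate 1 had only a ranked call of 24.8. The other Sm genes had weaker calls or none: snr-7 (SmG) had 19.5, snr-5 (SmF) had a ranked call of 30.6 in replicate 1 alone, and snr-6 (SmE) had one of 13.8 in replicate 2 alone. At snr-6 a peak of replicate 2's own list, at 56.6, lay 481 bp inside the 5′ end, beyond the end of that short gene. At snr-2, which encodes SmB, no list had a call within 250 bp.

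The LSm genes encode the rings that bind U6 snRNA in the nucleus and decapping substrates in the cytoplasm. At lsm-7 the whole-series signal value was 114, 253 bp upstream, which is 3 bp too far to count at 250 bp. Replicate 2's own list held it at 74.8 and 241 bp upstream, but replicate 1 had only a ranked call of 22.9. The conservative list left this peak out, and its IDR was 0.00183 in the ranked list that holds the thresholded peaks but 0.196 in the other whole-series ranked list, which holds all the conservative peaks. The nearer 5′ end, at 46 bp, was that of dnc-1, which encodes the large dynactin subunit and runs the other way. At lsm-6 a call of 57.4 lay 59 bp inside the gene with an IDR of 0.0292, and the replicates gave 29.4 and 32.4, neither past its threshold. The calls at lsm-8 and lsm-5 were 52.6 and 34.4, with IDRs of 0.623 and 0.516. At lsm-1, gut-2 (LSM2), lsm-3 and lsm-4 no list had a call within 250 bp.

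Among 6 genes for proteins particular to the U1, U2 and U5 snRNPs, prp-8 was occupied. PRP-8 is the large U5 protein at the catalytic centre of the spliceosome. Its whole-series signal value was 85.3, 239 bp upstream at chromosome III 8164134, and it ranked 2181 of 2829. The replicates' ranked lists had overlapping calls of 45 and 39.9, with IDRs of 0.0475 and 0.124, that were in neither replicate's thresholded list. Their summits lay 265 and 264 bp upstream, outside 250 bp. No other gene had a 5′ end within 250 bp of it. At snrp-200, which encodes the U5 helicase that unwinds U4 from U6, a call of 71.1 lay 24 bp inside the gene with an IDR of 0.0344, and the replicates gave 27.8 and 40.8. Calls were weak at rnp-3 (U2B″), 38.2, and at the U5 GTPase gene eftu-2, 3.78 in replicate 1 alone. At rnp-7 and rnp-2, which encode U1 snRNP proteins, none was found.

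Of the 3 genes for factors of the 3′ splice site, uaf-2 was occupied. At uaf-2, the small subunit of U2AF, the whole-series signal value was 94.8, replicate 1 gave 62.6 and replicate 2 gave 54.7, each past its list's threshold. The summit lay 2 bp inside the gene in the whole-series list and in replicate 2 and 27 bp upstream in replicate 1. No other gene of the list had a thresholded summit within 100 bp of its 5′ end. At uaf-1, the large subunit, a call of 71.3 lay 51 bp upstream with an IDR of 0.0384. Replicate 1 gave 50.6 and replicate 2 gave 22.5 there, and the IDR in the other whole-series ranked list was 0.252. Only 69% of the 50-base words around the uaf-1 5′ end occur once in the genome, against 100% at each of the other 34 genes. At sfa-1, which encodes the branch point protein SF1, a call of 40 had an IDR of 0.171. The genes uaf-2, cyn-13 and sfa-1 follow each other on the minus strand of chromosome IV, inside the second of the piRNA clusters of that chromosome, and sfa-1 begins 98 bp after cyn-13 ends.

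**Figure D3:**
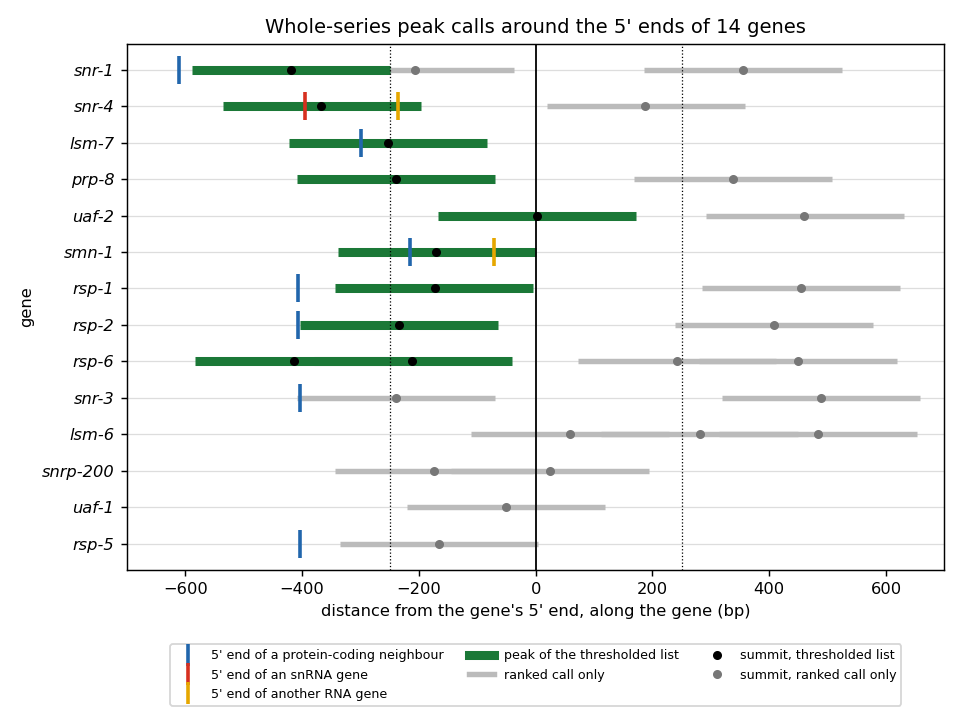
Peaks and ranked calls of the whole-series list (bars) and their summits (points) against distance from the 5′ end along the gene (bp), for the 14 genes with a thresholded summit within 500 bp or a ranked call of IDR at most 0.05 within 250 bp; vertical ticks are 5′ ends of other genes near the highest call and dotted lines mark 250 bp. The uaf-2 summit sits at the 5′ end, at 2 bp, and those of smn-1, rsp-1, rsp-2, rsp-6 and prp-8 lie 170 to 239 bp upstream.

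The strongest peak within 250 bp of a listed gene was at smn-1, which encodes the survival motor neuron protein that assembles Sm rings. Its whole-series signal value was 142, at rank 876 of 2829, and replicates 1 and 2 gave 73.1 and 65.9, each past its list's threshold. The summits lay 170, 144 and 170 bp upstream. Within 250 bp, smn-1 was also the only listed gene left at an IDR of at most 0.001 (2.86%), beside 1.18% of all protein-coding genes. The peaks farther from snr-1 and snr-4 had IDRs of 0.000114 and 0.00014, lower than the 0.000387 at smn-1. The peak was not smn-1's alone: the 5′ end of klp-16, a kinesin gene that runs the other way, was 46 bp from the summit, and the summit lay inside the annotated miRNA gene cel-mir-4932. The trans-splicing genes sna-1 and sna-2 encode proteins of the spliced leader snRNPs. No list had a call within 250 bp of sna-1, and sna-2 had one of 4.94 in replicate 2 alone.

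The SR protein genes held 3 of the 6 occupied genes, out of 8 (37.5%, interval 8.52 to 75.5%), beside 2.48% of all protein-coding genes. That interval counts the peak shared by rsp-1 and rsp-2 for both genes. With a summit given only to the nearest 5′ end, 2 of 8 were occupied (25%, interval 3.19 to 65.1%), beside 1.97% of all protein-coding genes. The neighbours rsp-1 and rsp-2 are transcribed away from each other from 5′ ends 407 bp apart, and 1 peak stood between them. Its whole-series signal value was 111, 173 bp upstream of rsp-1 and 234 bp upstream of rsp-2. Replicate 1's own list held it at 66, but replicate 2 had only a ranked call of 43.3, with an IDR of 0.0512. At rsp-6, the counterpart of mammalian SRp20, the whole-series signal value was 79.2 and the replicates gave 47.3 and 39.7. Neither replicate list held it past its threshold, and at rank 2433 of 2829 it was the weakest of the 5 peaks. The summits lay 211, 209 and 167 bp upstream. A side call of 5.89 in the thresholded list adjoined it, 414 bp upstream of rsp-6. The call between rsp-5 and snr-3, described above, was 165 bp upstream of rsp-5. At rsp-3, the counterpart of SF2/ASF, a call of 66.4 had an IDR of 0.0867, and at rsp-4, the counterpart of SC35, one of 39 had an IDR of 0.607. The call at rsp-8, 6.57, was in replicate 1 alone, and rsp-7 had none. When the 5′ end of any annotated transcript was allowed, rsp-8 joined the occupied genes, which made 7 of 35 (20%) beside 2.9% of all protein-coding genes.

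**Figure D4:**
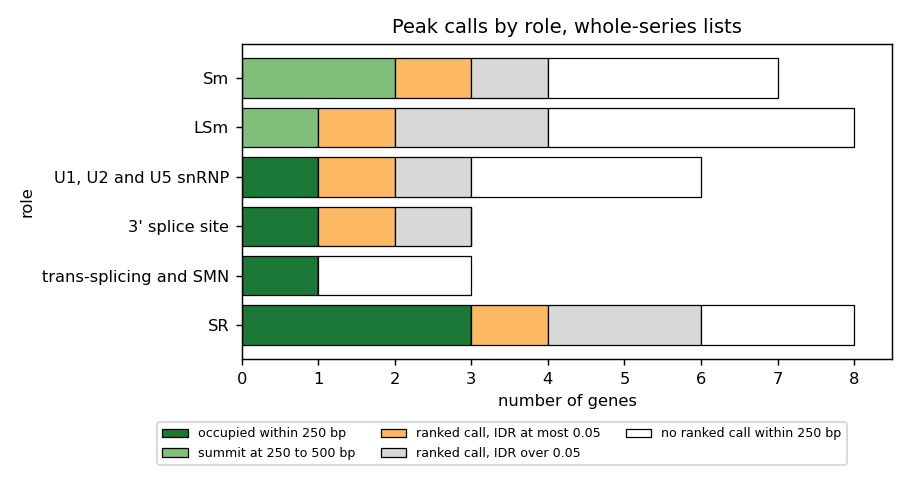
Number of genes of each role by the best evidence for a peak in the whole-series lists, from a thresholded summit within 250 bp (dark green) to no ranked call within 250 bp (white). SR genes hold 3 of the 6 occupied genes, and the Sm and LSm rows have 2 genes and 1 gene with a summit at 250 to 500 bp and none nearer.

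Below the threshold the listed genes also carried calls. At an IDR of at most 0.05 in the ranked list, 11 of 35 genes had a call within 250 bp (31.4%, interval 16.9 to 49.3%), beside 4.36% of all protein-coding genes. The 5 genes this added were snr-3, rsp-5, lsm-6, snrp-200 and uaf-1. In the other whole-series ranked list 8 of 35 had such a call (22.9%), beside 3.96% of all protein-coding genes. There uaf-1 and the pair snr-3 and rsp-5 no longer had one, and the IDR of the call that this pair shares was 0.0851. With no limit on the IDR, 20 of 35 genes (57.1%) had a call, beside 35.1% of all protein-coding genes and 57.9% of the further splicing genes described below. Counting a gene with no call as 0, the median signal value was 33.4 over the 35 genes, 10.1 over the further splicing genes and 0 over all protein-coding genes. No whole-series ranked call lay within 250 bp of 15 of the 35 genes, beside 12953 of all 19973 protein-coding genes. At 14 of these 15 there was no thresholded summit within 500 bp either, a count not made for all genes without a ranked call. Of all protein-coding genes, 19123 of 19973 had no thresholded summit within 500 bp, so nothing is read from the 14.

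Many of the listed genes have a close neighbour. Of the 35, 12 (34.3%) had the 5′ end of a protein-coding gene of opposite direction within 500 bp upstream, beside 9.25% of all protein-coding genes, and 3 of the 12 were occupied, beside 7.14% of all genes of that kind. These 3 were smn-1 and the pair rsp-1 and rsp-2, which share 1 peak. Another 10 (28.6%) began within 500 bp of the end of a gene on the same strand, beside 18.9% of all genes. Operons are not named in the annotation used here, so these 10 are only candidates for downstream positions. Only rsp-6 was occupied among them, 474 bp after C33H5.13, beside 4.26% of all such genes. The 6 genes with the smallest gaps were not occupied: rsp-4, which overlaps the end of ndx-6, rnp-7, 4 bp after syf-2, rnp-3, 72 bp after rnp-2, sfa-1, 98 bp after cyn-13, lsm-8, 103 bp after sqd-1, and snrp-200, 121 bp after pisy-1. With 6 genes, none occupied is near that share of 4.26%, so nothing is read from it about gaps or operons. The share for all genes with gaps this small was not counted. The gene before sfa-1, cyn-13, had a thresholded summit within 250 bp of its own 5′ end, described below. Of the 13 genes with neither kind of neighbour, prp-8 and uaf-2 were occupied, beside 1.43% of all such genes. When a summit was given only to the gene with the nearest 5′ end, 4 of 35 genes stayed occupied (11.4%, interval 3.2 to 26.7%), namely prp-8, uaf-2, rsp-1 and rsp-6, beside 1.97% of all protein-coding genes. The part of neighbouring genes in these counts was not tested.

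The listed genes lay on all chromosomes but X, 10 of them on chromosome IV and 4 of those inside its piRNA clusters. SNAPc subunits are known to act at piRNA genes in this species, and there 10.8% of all protein-coding genes were occupied. Outside the clusters 5 of 31 listed genes were occupied (16.1%) beside 2.07% of all genes, so uaf-2 was the only occupied one inside. On chromosomes other than IV the count was 4 of 25 (16%) beside 1.81%.

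Most summits lay upstream of the annotated 5′ end, and whether that end is where transcription starts was not examined. Of the 6 occupied genes, 5 had the summit upstream, and the median position was 192 bp upstream with a range from 239 bp upstream to 2 bp inside. The peak that rsp-1 and rsp-2 share is counted for both genes here, and a summit between their 5′ ends is upstream of each by its position. Over all 496 occupied protein-coding genes, 75.8% of summits were upstream and the median was 114 bp upstream. Words were counted in the 151 bases around 8 summits, those of the highest peak within 500 bp of each listed gene that had one. The side call of 5.89 at rsp-6 was not among these 8, whereas all 2829 peaks include such side calls. GTTCGAA occurred in 2 of the 8, at lsm-7 and rsp-6, beside 4.42% of all 2829 peaks. No tRNA gene lay within 500 bp of either gene. TATAAA occurred in 3 of the 8, at snr-4, rsp-1 and rsp-6, beside 10.9% of all peaks and 18.2% of the 44 peaks near an snRNA gene. At snr-4 it began at the summit base itself, and at rsp-6 it was matched on both strands by overlapping letters. TTTCAG occurred in 3, at uaf-2, smn-1 and rsp-6, beside 17.9% of all peaks. CTGTTTCA occurred in 1, beside 6.36% of all peaks: it lay 55 to 62 bp inside uaf-2, in the 5′ UTR, and it overlapped a TTTCAG that ended on the last base of that stretch of UTR. With 8 peaks these counts only describe the windows, and a match is not a binding site.

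In windows of 300 bases, from 250 before to 50 after the annotated 5′ end, CTGTTTCA was in none of the 35, beside 2.32% of all protein-coding genes. TATAAA was in 10 (28.6%) beside 37.9%, and GTTCGAA in 2 (5.71%) beside 4.24%. TTTCAG was in 26 (74.3%) beside 51.7%. Of the 6 occupied genes, prp-8, smn-1, rsp-1 and rsp-2 had a TATAAA in this window, beside the 37.9% of all protein-coding genes. The windows of rsp-1 and rsp-2 overlap, and the TATAAA marked in the rsp-1 sequence lies in both. With so few genes, a link between this word and occupancy was not tested.

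Further genes of the splicing pathway, 76 found of 90 names, were counted in the same way. These were chosen with earlier results of these data known, so their shares are a description and not an independent second set. A summit lay within 250 bp of 6 of them (7.89%, interval 2.95 to 16.4%), beside 2.48% of all protein-coding genes, and within 500 bp of 11 (14.5%, interval 7.45 to 24.4%), beside 4.26%. The highest signal value within 250 bp was 139, at plrg-1 of the PRP19 complex, 200 bp upstream. The others were mel-46, the counterpart of the SMN complex helicase Gemin3, at 122, smu-1, a regulator of alternative splicing, at 118, the second-step factor prp-18 at 86.4, the cyclophilin gene cyn-13 at 84.6 and the helicase gene mog-4 at 83.3. Both mel-46 and cyn-13 lie inside the second piRNA cluster of chromosome IV. Outside the clusters 4 of 73 further genes were occupied (5.48%), beside 2.07% of all genes. On chromosomes other than IV the count was 3 of 59 (5.08%), beside 1.81%. The mel-46 peak was shared with lsy-13 and the prp-18 peak with mccc-1, each transcribed the other way. The 5′ end of a piRNA gene, 21ur-13999, was also 223 bp from the prp-18 summit. At mog-4 a stronger peak of 299 lay 272 bp upstream, and both replicates' own lists held it. In each replicate's own list 3 of the 76 had a summit within 250 bp (3.95%), beside 1.22% and 1.54% of all protein-coding genes. No gene of the 76 was in both lists, beside 0.846% of all protein-coding genes. Of the 6, 4 belonged to the 21 genes for catalytic complexes and helicases (19%, interval 5.45 to 41.9%), beside 2.48% of all protein-coding genes. The counts were 0 of 9 for U2 and SF3 genes and 0 of 13 for tri-snRNP genes. In groups this small, 0 is near the 2.48% of all protein-coding genes, so no difference between groups is read from it. The upper limits of those shares were 33.6% and 24.7%.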

How the data were processed

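Anti-GFP ChIP-seq of tagged SNPC-1.2 from L4 larvae (2 biological replicates, 1 group) was taken as 8 deposited peak lists on ce11: 4 thresholded lists in narrowPeak format and 4 ranked lists, for each replicate and the whole series. Which aligner and peak caller were used is not given in the sources used here. Peak positions, the signal value, the score (derived from the IDR and capped at 1000) and −log10 of the IDR (at most 5) were used as deposited by the authors. The label for the antibody names snpc-1.2, whereas the description per the labels is anti-GFP. A whole-series list is the authors' own combination of both replicates, and each replicate's list is set beside it. The 2829 nuclear thresholded peaks of the whole series all occur in 1 of the 2 whole-series ranked lists, which served as the ranked list. Mitochondrial peaks were left out. Whether the replicates came from separate cultures is not stated beyond the label biological.

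A summit was column 2 plus column 10 plus 1. Annotation for 5′ ends was Ensembl release 115 on WBcel235, whose chromosome lengths matched, and sequences from the RefSeq genome of that build. Both piRNA clusters lie on chromosome IV, one spanning 4.5 to 7.0 Mb and the other 13.5 to 17.2 Mb. Intervals are exact 95% Clopper-Pearson intervals from SciPy 1.17.1, and tables used pandas 2.3.3 and Python 3.11.15. No test was made of the gene list. The counting of summits was checked on simulated peaks planted at known distances.

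The 35 genes, the further splicing genes and the words were chosen with earlier results of these data known. The genes described in full are those with a whole-series thresholded summit within 500 bp, those with a ranked call within 250 bp of IDR at most 0.05, the next 5 by ranked signal, each further gene occupied within 250 bp, and the nearest genes that share these peaks; the rest are accounted for by a value or a count. Alternatives were other windows, any overlap of the peak, the conservative and ranked lists, a stricter IDR, other transcript ends, the nearest gene alone, genes away from short RNA genes, and each replicate left out. Sequence of smn-1 and lsm-6 is not reported here.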

Additional observations from a re-analysis of the deposited data

How the results depend on the processing

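The share of listed genes occupied, 17.1%, ran from 11.4 to 31.4% under the conservative list, 500 bp, any overlap of the peak (25.7%), either ranked list at an IDR of at most 0.05, any transcript end, the nearest gene alone, and genes away from short RNA genes. It fell to 2.86% within 100 bp (uaf-2) and to 2.86% (smn-1) at an IDR of at most 0.001. The share of all protein-coding genes, 2.48%, was 0.861% at 100 bp, 4.26% at 500 bp, 3.77% with any overlap, 4.36% and 3.96% in the 2 ranked lists, 1.18% at the stricter IDR, 2.9% with any transcript end and 1.97% with the nearest gene alone. The further splicing genes, at 7.89%, gave 2.63% at 100 bp and 2.63% at the stricter IDR. With 1 replicate left out, the shares were 11.4% of the listed genes and 3.95% of the further genes for each replicate, and 1.22 to 1.54% of all protein-coding genes. The next settings were chosen after seeing the data. Being in both replicates' own lists gave 5.71% of the listed, 0.846% of all and 0% of the further genes. Leaving out the piRNA clusters gave 16.1% of the listed, 5.48% of the further and 2.07% of all genes. Leaving out chromosome IV gave 16%, 5.08% and 1.81%, in that order. These alternatives are narrower or wider by construction, and beyond that the cause was not tested. The signal values at the occupied genes under other windows and the conservative list are those of the same peaks read again, so they say nothing of stability, and the values in the replicates' own lists are on other scales. No paired analysis was possible because there is 1 group. Read depth is unknown, so how far depth limits weak calls cannot be given.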
